A study of Mus musculus with 6 samples.

Results

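Gr1+Mac1+ bone marrow cells of mice with 1 intact copy of Diap1 (Het) were compared with the same fraction of wild-type mice (WT). Every gene locus whose FPKM carried the status OK in both libraries entered the comparison, which kept 23452 of the 23746 loci in each table. Of these, 11273 had a mean FPKM of at least 1 over both libraries and are called measured below. FPKM is the number of sequenced fragments of a gene, scaled to the length of its transcript and to the total of the library. One library stood on each side, so the values below are sizes of difference without a test and without a p-value.

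Diap1 is the older symbol of the gene for mDia1 (now Diaph1), a formin that nucleates and elongates unbranched actin filaments. Gr1 and Mac1 are surface antigens of myeloid cells. Gr1 antibodies bind Ly6G on neutrophils and Ly6C on monocytes, and Mac1 is the integrin of the chains encoded by Itgam and Itgb2. Neutrophils of the marrow store antimicrobial proteins in primary, secondary and tertiary granules, and monocytes carry the lipopolysaccharide co-receptor CD14.

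The study covered wild-type (WT), Diap1 +/- (Het) and Diap1 -/- (KO) mice, all on the C57BL/6 strain and 12 weeks old. For every genotype the marrow of 4 mice was combined before sorting, so 1 library is 1 pool and the spread between mice was not measured. Cells carrying both Gr1 and Mac1 were taken out with magnetic beads, and progenitors (Lin-) were then enriched from what was left by depletion, giving 6 total RNA libraries in all. The labels do not name the deleted part of Diap1 or the sex of the mice.

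The implied depth was 11600000 fragments in WT and 10240000 in Het, estimated from the width of the deposited intervals. The intervals do not cover the spread between mice, and at some loci their width does not follow counting alone. The Hba-a2 locus starting at 32283675, for example, read 866 FPKM in WT and 305 in Het, with an implied 982 and 767 fragments. The fraction's antigens were well expressed. Itgam read 293 FPKM in WT and 311 in Het, Itgb2 at 319 and 329, Ly6c1 at 325 and 267, and Ly6c2 at 1217 and 1069; Ly6g was not analysed here. None of the cell type markers examined was at 0 in either library, so the fraction also held transcripts of red cell precursors, B cells, T and NK cells, eosinophils, platelets and stroma. Summed over its markers, the neutrophil signal in Het was 93.9% of WT (2 of 7 markers higher), the monocyte signal 89.1% (1 of 5) and the macrophage signal 117% (5 of 7). Xist, which is expressed from the inactive X chromosome, read 27.1 in WT and 18.02 in Het, and the Y-linked gene Eif2s3y 10.8 and 13.7, so the sex mix of the pools may differ and cannot be told apart from genotype. In the Lin- fraction, used below for side-by-side values, the Het library held neutrophil markers at a summed FPKM of 7383, where the WT library had 64.4 and the KO library 76.2.

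Diap1 itself (chromosome 18, 37844825 to 37935411, mm10) was lower in Het. WT cells held 57.1 FPKM of it (deposited interval 55.2 to 59.0) and Het cells 34.1 (32.5 to 35.6), which is 59.7% of WT and a log2 ratio of -0.73 with a counting standard error (SE) of 0.04. In KO cells of the fraction it was 4.07. The Lin- libraries of WT, Het and KO had 36.0, 24.2 and 6.07. In both fractions the Het level lay between WT and KO, with no overlap of the deposited intervals between any pair of genotypes.

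Nearly all genes stayed close to the WT level. Log2 ratios, taken here as log2(FPKM + 1) in Het minus WT, had a median of -0.00094 over the 11273 measured loci, with quartiles at -0.13 and 0.12. The ratio lay within 0.5 of 0 for 96.2% of them. A gene counts as higher or lower when it differed by at least a stated fold on this scale, reached an FPKM of 5 in the higher library and had deposited intervals that did not overlap. By this rule 4 loci were higher (0.0355%) and 11 lower (0.0976%) at 2-fold, and 19 were higher (0.169%) and 54 lower (0.479%) at 1.5-fold. Below, rose and fell refer to the 1.5-fold rule unless 2-fold is named. Without a minimum size, intervals lay apart upward for 8.29% and downward for 8.45% of the loci, which is the background for counts of separate intervals below. It is taken over all levels, and the share rises with level, as given below with the immediate-early genes. The median size of the log2 ratio was 0.158 for loci with a mean FPKM from 1 to 5, against a median counting SE of 0.153. It was 0.0869 for those at 1000 or more, where the counting SE was 0.0214, so abundant genes differed between the libraries by more than counting error alone.

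**Figure D1:**
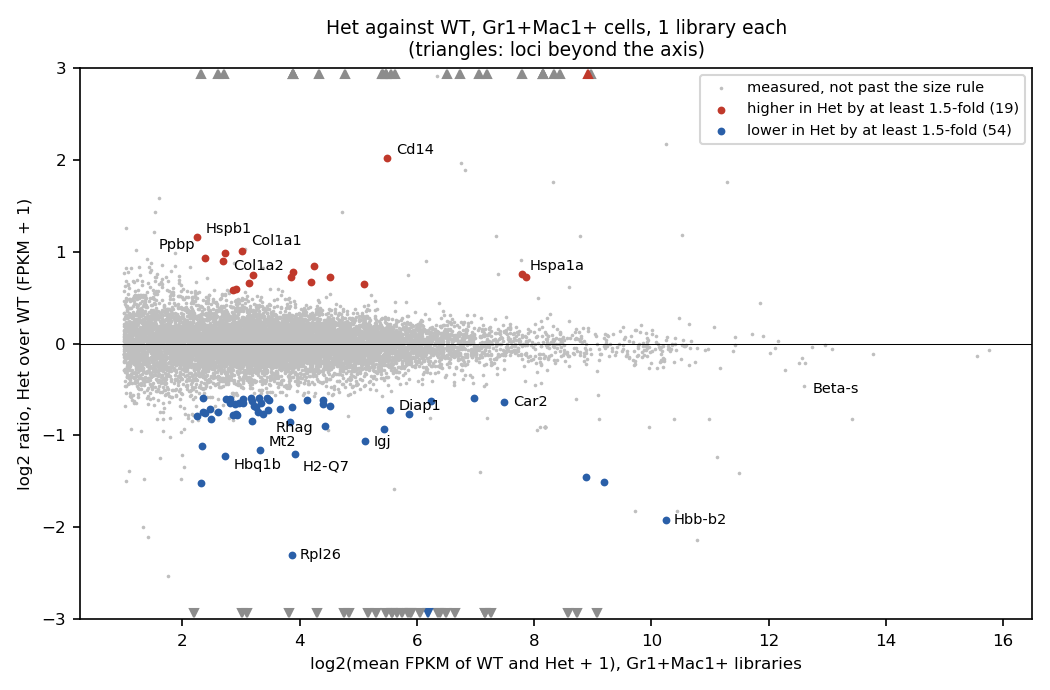
Each point is a measured locus, with the log2 of its mean FPKM (plus 1) on the horizontal axis and the log2 ratio of Het over WT on the vertical axis, for 1 library each. Red points are the 19 loci higher and blue points the 54 lower by at least 1.5-fold; triangles mark the 55 loci beyond a log2 ratio of 3, of which 54 are small RNA genes and 2 passed the rule.

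Cd14 had the largest rise among protein-coding genes past the rule. It encodes the surface protein that hands lipopolysaccharide to the receptor TLR4 and its partner MD-2, and lies on the same chromosome as Diap1 (36725067 to 36726654), 1.12 Mb away. WT cells held 16.9 FPKM (15.1 to 18.8) and Het cells 71.4 (67.4 to 75.4), a log2 ratio of 2.02 (SE 0.08), and 132 in KO. The Lin- libraries had 0.284, 1.95 and 2.37 in the same order. The Het Lin- library also held neutrophil transcripts (above), and the part of Gr1+Mac1+ cells in its Cd14 level was not tested. The 3 genotypes did not overlap in the Gr1+Mac1+ fraction. Het and KO were both set against the same WT library.

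The CD14 and Toll-like receptor list had ratios centred near 0. Of its 32 measured genes Cd14 alone passed the 1.5-fold rule, where 0.169% of all measured loci rose and 0.479% fell. By those shares none among the others is close to the background, as are the counts of none that follow. The median of the 32 was 0.01, where all measured genes had -0.00031. The adaptor gene Myd88 read 52.0 in WT and 57.2 in Het, the chaperone gene of endosomal Toll-like receptors Unc93b1 131 and 138, and Lbp, for the lipopolysaccharide-binding protein, 41.2 and 47.96. Ly86, for the MD-1 partner of RP105, read 73.9 and 61.9, with a log2 ratio of -0.25. None of the 18 measured NF-kB feedback genes passed, with a median of 0.07; their most abundant member Nfkbia, the inhibitor that NF-kB itself induces, read 77.6 and 96.1. None of the 21 cytokine and chemokine genes passed either (median 0.03), with Il1b at 148 and 157 and Ccl6 at 317 and 234.

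The neighbourhood of Diap1 was also examined, because Cd14 lies in it. Of 28 measured genes other than Diap1 within 2 Mb on either side, Cd14 was the single one that passed at 1.5-fold, and the median of the 28 was -0.01. Given the shares over all measured loci (0.169% rose, 0.479% fell), none passing among the other neighbours is close to the background. Without Cd14 the ratios ran from -0.31 to 0.68. The highest of them is past 1.5-fold in size but did not meet the rule's level or interval condition. All measured genes of chromosome 18 had a median of -0.04. Over 20 chromosomes the medians ran from -0.05 to 0.04.

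**Figure D2:**
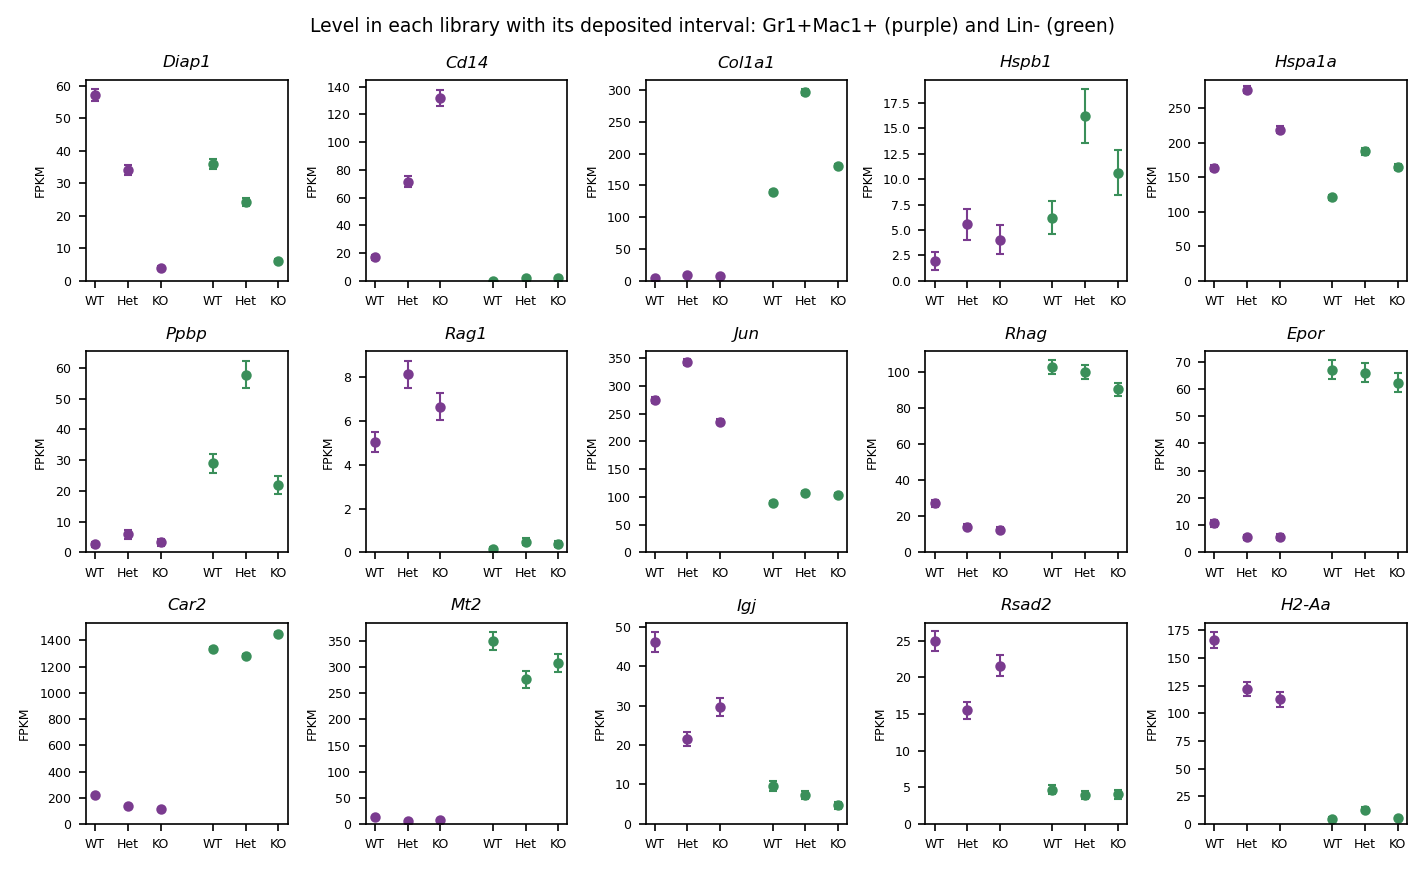
FPKM of 15 genes in all 6 libraries, with the deposited interval as the bar, Gr1+Mac1+ in purple and Lin- in green, 1 library per point; each panel starts at 0 and has its own scale. In purple, Cd14 goes from 16.9 in WT to 71.4 in Het and Rhag from 27.2 to 14.2, while in green Rhag goes from 103 to 100.2.

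Genes of red cell formation were lower in Het as a group. The lists examined cover globins, heme synthesis and iron, the red cell membrane and skeleton, and erythroid regulators and enzymes, with 70 measured genes in all. Of these, 13 fell at 1.5-fold and none rose, where 0.479% of all measured loci fell. The 13 include Hbb-b2, whose sum with Hbb-b1 on the same bases had a ratio of -0.46, under the rule's size. Of the 70, 68 had a negative log2 ratio, and the median was -0.42 (quartiles -0.55 and -0.20). Intervals lay apart downward for 51 of the 70 and upward for 2. The median Het level was 73.7% of WT. The 10 erythroid markers, over 11 loci, summed to 17888 in WT, 15624 in Het and 13910 in KO, with every locus lower in Het than in WT and none at 0. Most of that sum is Hba-a1 and Hbb-b1, whose loci share their span with other globin loci (below). Without them the 8 other marker loci summed to 472, 324 and 274 in the same order, 8 of 8 lower in Het, which put Het at 68.7% of WT. In a bulk fraction, fewer red cell precursors and less of each transcript per cell cannot be told apart.

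In the membrane and skeleton list 5 of 23 genes fell, with a median of -0.46. Rhag, for the Rh-associated ammonia channel, went from 27.2 (25.4 to 29.1) to 14.2 (12.8 to 15.6), beside 12.7 in KO, a log2 ratio of -0.89 (SE 0.08) for Het. Rhd, for its partner in the Rh complex, went from 72.3 (68.5 to 76.0) to 42.2 (39.1 to 45.3), or -0.76. This pair of genes of the red cell surface had Het levels of 52.1% and 58.4% of WT. The water channel gene Aqp1 went from 90.3 to 58.3 (-0.62) and Tspo2, which encodes an erythroid membrane protein of the translocator family, from 24.6 to 15.8 (-0.61). Slc4a1, for the anion exchanger band 3, read 162 in WT and 118 in Het, with a log2 ratio of -0.46 that is under the rule's size.

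Among erythroid regulators and enzymes 6 of 23 fell, with a median of -0.50 and all 23 ratios negative. Epor, the erythropoietin receptor gene, went from 10.7 (9.39 to 12.0) to 5.51 (4.51 to 6.51), a log2 ratio of -0.85 (SE 0.14). The carboxylesterase gene Ces2g went from 17.4 to 9.14 (-0.86) and Pklr, for the red cell pyruvate kinase, from 10.5 to 6.15 (-0.68). These 3 are abundant in progenitors, at 66.9, 223 and 186 in the WT Lin- library. Fn3k, for a kinase that reverses protein glycation, went from 11.3 to 6.34 (-0.74), Tmcc2 from 17.0 to 10.1 (-0.69) and the carbonic anhydrase gene Car2 from 219 to 140 (-0.64). The transcription factor genes Klf1 and Gata1, both markers of the lineage, had log2 ratios of -0.51 and -0.53, with FPKM going from 17.2 to 11.8 and from 19.9 to 13.5. In the heme and iron list no gene of 19 passed, but 18 ratios were negative, with a median of -0.37. Alas2, for the first enzyme of erythroid heme synthesis, read 123 in WT and 94.5 in Het.

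Only 2 of the 70 ratios were positive. Ftl1, for the ferritin light chain, read 1470 in WT and 1705 in Het (log2 ratio 0.21), and the glucose transporter gene Slc2a1, named after its value was seen, 8.90 and 12.7 (0.47). The KO libraries, which do not enter the Het ratio, divide the lists by where the genes are abundant. For the 35 genes at least 4-fold higher in KO Lin- than in KO Gr1+Mac1+ cells, the Het ratios ran from -0.89 to -0.09 with a median of -0.51. For the 13 genes higher in KO Gr1+Mac1+ than in KO Lin- cells, which include Hbb-b1, Hbb-b2 and Beta-s, the ratios ran from -1.92 to 0.47 with a median of -0.35. The remaining 22 genes had a median of -0.30 and ran from -1.23 to -0.04. In the Lin- fraction the same 70 genes had a median Het ratio of 0.05, with 45 positive and 25 negative. Rhag was at 103 in WT and 100.2 in Het there, and Epor at 66.9 and 65.9. The difference between the fractions was not tested.

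**Figure D3:**
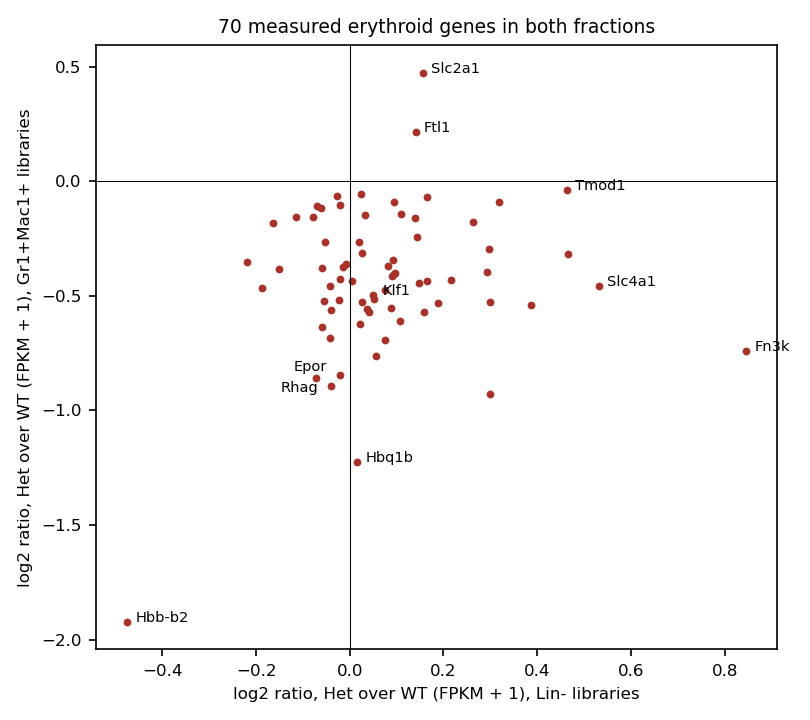
Log2 ratio of Het over WT of the 70 measured erythroid genes, in Lin- cells on the horizontal axis and in Gr1+Mac1+ cells on the vertical axis, each axis from its own 2 libraries. Of the points, 68 lie below 0 on the vertical axis and 25 lie left of 0 on the horizontal one.

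To show the letters upstream of genes that fell, the 250 bases before the start of Epor, Rhag and Rhd are given 5′ to 3′ on the gene's strand, from RefSeq on GRCm38.p6, with GATA motifs (AGATAA or TGATAA, or the same with G as the last letter, either strand) and CACCC motifs (CCACNCCC, either strand) in capitals. These are the letters bound by the GATA and Krüppel-like families, to which GATA1 and KLF1 belong.
Epor promoter, chr9:21963577-21963826, minus strand: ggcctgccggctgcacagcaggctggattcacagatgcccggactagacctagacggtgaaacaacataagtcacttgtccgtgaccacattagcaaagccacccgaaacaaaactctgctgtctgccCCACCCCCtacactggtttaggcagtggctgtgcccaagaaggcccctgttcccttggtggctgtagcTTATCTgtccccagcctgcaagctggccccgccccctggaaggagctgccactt
Rhag promoter, chr17:40810899-40811148, plus strand: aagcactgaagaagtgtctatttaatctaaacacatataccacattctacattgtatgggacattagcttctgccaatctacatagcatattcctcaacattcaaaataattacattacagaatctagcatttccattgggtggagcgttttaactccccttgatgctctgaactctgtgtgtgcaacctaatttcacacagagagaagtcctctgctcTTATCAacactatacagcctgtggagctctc
Rhd promoter, chr4:134864286-134864535, plus strand: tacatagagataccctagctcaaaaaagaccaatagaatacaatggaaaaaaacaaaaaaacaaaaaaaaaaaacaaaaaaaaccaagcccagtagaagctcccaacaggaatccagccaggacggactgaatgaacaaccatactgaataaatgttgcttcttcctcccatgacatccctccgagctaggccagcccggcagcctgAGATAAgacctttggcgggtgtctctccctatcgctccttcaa
Each of the 3 holds 1 GATA motif, and Epor holds a CACCC motif as well. They are printed because they hold a motif. Aqp1, which also fell, has neither in its window. Of the 70 erythroid genes 49 matched a promoter, of which 21 (42.9%) held a GATA motif and 12 (24.5%) a CACCC motif. Over all 32851 promoters of the table the shares were 26.5% and 15.9%. A match is a run of letters and no measured binding.

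Globin transcripts need care, because several globin loci share a span. Hbb-b2 (7:103812524 to 103813903) went from 1919 to 506, past 2-fold, while Hbb-b1, whose locus covers the same bases, read 4311 and 4013. Their sum went from 6230 to 4519, a log2 ratio of -0.46. With the remaining adult beta globin locus, Beta-s (7213 in WT, 5220 in Het), the sum went from 13442 to 9739, or 72.4% of WT. Both loci of Hba-a2 (chromosome 11, starting at 32283675 and 32296492) passed at 2-fold with log2 ratios of -1.50 and -1.45, while the Hba-a1 loci on the same bases read 6790 and 5852, and 6315 and 5435. The 4 alpha loci together went from 14667 to 11845, or 80.8% of WT. Hbq1b, for a theta globin, went from 8.29 to 2.97 (-1.23); it has a close copy, Hbq1a, at 3.65 and 2.20. The sums are of FPKM, which is scaled to the length of each transcript. They are free of how fragments were divided between loci on the same bases only where those lengths are equal, which was not checked.

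Other loci past the 2-fold rule share their span too. Rpl26, for a protein of the large ribosomal subunit, went from 23.2 to 3.90, but the predicted gene Gm15772 on the same bases held 1295 and 1270 and the sum changed by -0.05 on the log2 scale. Gm15772 and, below, H2-Q9 carry the status LOWDATA in the WT library, so neither entered the comparison, and these sums are given as a description. The class I gene H2-Q7 went from 20.04 to 8.12, while H2-Q9 on the same bases read 30.1 and 43.1, with a summed ratio of 0.03. Scarna10, a small RNA gene within Ncapd2, had a listed level of 0 in WT, and in Het one of 964 from an implied 4 fragments. Snora33, within the ribosomal protein gene Rps12, had 143 in WT and a listed level of 0 in Het. With loci summed where they overlap by at least 90%, a setting chosen after seeing the data, 4 loci were higher and 6 lower at 2-fold.

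**Figure D4:**
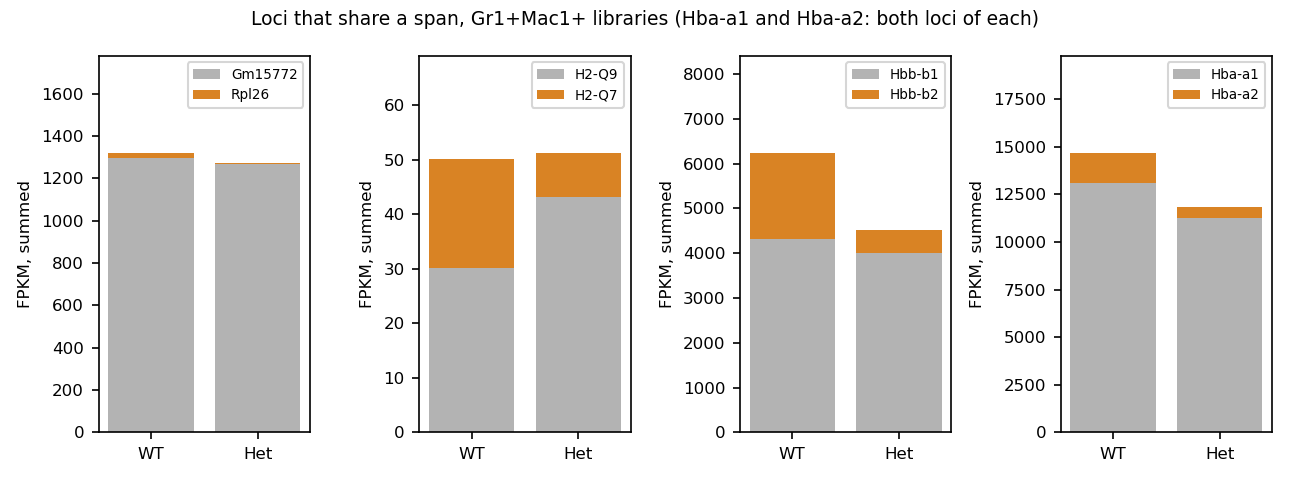
FPKM of 4 pairs of loci that cover the same bases, stacked, in the WT and Het Gr1+Mac1+ libraries; the Hba panel holds 2 loci of each name, all axes start at 0, and no error is drawn. The orange parts shrink from WT to Het in every panel, while the full bars stay level for Rpl26 (1318 and 1273) and H2-Q7 (50.1 and 51.2) and are lower in Het for the globins.

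The remaining genes lower at 2-fold were few. Mt2, which encodes a metal-binding metallothionein, went from 12.9 (9.82 to 16.0) to 5.21 (3.13 to 7.30), a log2 ratio of -1.16 (SE 0.29). Its neighbour Mt1, a separate locus that shares no span with Mt2, read 58.5 and 67.3. Mt1 makes up most of their sum, 71.4 in WT and 72.5 in Het, so the sum says little about Mt2. Igj, for the joining chain of polymeric immunoglobulin made by plasma cells, went from 46.2 (43.7 to 48.7) to 21.5 (19.7 to 23.4), with 29.7 in KO. The histone gene Hist3h2ba went from 5.93 to 2.21 and the uncharacterised 1700026L06Rik from 6.39 to 1.57. All 4 are at a modest level, with Hist3h2ba resting on an implied 38 and 13 fragments and 1700026L06Rik on 46 and 10.

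Hspb1, Hspa1a and Hspa1b rose, and the other 18 of 21 measured heat shock and chaperone genes did not pass the rule. The list median was 0.04. Hspb1, for the small chaperone HSP27, went from 1.95 (1.10 to 2.80) to 5.57 (4.04 to 7.10), a log2 ratio of 1.15 (SE 0.27). Hspa1a, for inducible HSP70, went from 163 (159 to 167) to 277 (271 to 282), a log2 ratio of 0.76 (SE 0.02), and its near-identical copy Hspa1b from 174 to 288. Fragments can be divided between the copies, whose sum went from 337 to 564, with 456 in KO. Hspa1l, which lies beside Hspa1a and is outside the list, went from 16.3 to 27.5 (0.72). The constitutive chaperone genes Hspa8 and Hsp90ab1 read 795 and 884, and 463 and 508, each under the rule. In the Lin- libraries Hspb1 was at 6.20 in WT and 16.2 in Het, and Hspa1a at 121 and 187, both past 1.5-fold, with a list median of -0.09 there.

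For the promoters of Hspb1 and Hspa1a, from RefSeq on GRCm38.p6 and 5′ to 3′ on the gene's strand, capitals mark the core pair of heat shock element units (GAANNTTC or TTCNNGAA, either strand), the letters that heat shock factor 1 recognises. They are shown because these genes rose in both fractions.
Hspb1 promoter, chr5:135887669-135887918, plus strand: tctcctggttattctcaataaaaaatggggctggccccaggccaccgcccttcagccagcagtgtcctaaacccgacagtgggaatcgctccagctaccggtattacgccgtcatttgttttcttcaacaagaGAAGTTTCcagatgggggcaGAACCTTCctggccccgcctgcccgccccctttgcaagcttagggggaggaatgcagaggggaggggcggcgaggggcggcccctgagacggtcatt
Hspa1a promoter, chr17:34972157-34972406, minus strand: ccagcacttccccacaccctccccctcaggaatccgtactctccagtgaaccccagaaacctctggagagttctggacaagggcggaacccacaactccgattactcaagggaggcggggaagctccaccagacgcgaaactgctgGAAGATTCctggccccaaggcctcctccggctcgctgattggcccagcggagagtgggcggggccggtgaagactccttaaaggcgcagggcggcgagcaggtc
Hspb1 holds 2 such motifs and Hspa1a 1. Of the 21 heat shock and chaperone genes 16 matched a promoter and 7 of these (43.8%) held the motif, against 12.8% of all 32851 promoters. As above, that larger set also holds genes not measured and more than 1 promoter of some genes. Binding was not measured.

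Collagen I transcripts rose from a low level. Col1a1 and Col1a2 encode the chains of type I collagen, the main fibre of bone, made by osteoblasts and fibroblasts. Col1a1 went from 4.42 (3.91 to 4.92) to 9.87 (9.06 to 10.7), a log2 ratio of 1.004 (SE 0.09), with 7.25 in KO. Col1a2 went from 3.45 (3.03 to 3.88) to 7.82 (7.14 to 8.50), or 0.99. The gene pair stood at far higher levels in Lin- cells, where Col1a1 read 139, 296 and 180 for WT, Het and KO, and Col1a2 read 118, 234 and 147. In both fractions the Het library was the highest of the 3.

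Of the 14 measured stromal, osteoblast and endothelial genes these 2 rose and none fell, 13 ratios were positive, and the median was 0.38. The summed level of the 8 stromal and endothelial markers over WT, Het and KO was 31.1, 48.6 and 38.6, with 8 of 8 higher in Het than in WT. None of the 8 was at 0. The most abundant members of the list moved less, with Igfbp4 at 50.4 and 57.0, Pecam1, for an endothelial and leukocyte adhesion protein, at 16.3 and 18.8, and Runx2, for the osteoblast transcription factor, at 9.83 and 10.99. The list median was 0.19 with a mean FPKM of at least 5 and 0.15 without a filter on low values, where the B lineage list, below, had 0.20 and 0.16.

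Among platelet and B lineage genes 2 rose and 1 fell. Ppbp, for a platelet chemokine, went from 2.59 (1.72 to 3.47) to 5.87 (4.46 to 7.27), a log2 ratio of 0.93 (SE 0.23), and was the single one of 21 megakaryocyte and platelet genes to pass. In that list 14 ratios were positive, intervals lay apart upward for 3 and downward for 2, and the median of 0.15 was 0.05 with a mean FPKM of at least 5. The summed megakaryocyte markers were at 40.7 in WT and 51.4 in Het, with 5 of 5 higher. Of 24 B lineage genes 1 rose and 1 fell, with a median of 0.18 and 18 positive ratios. Rag1, for the recombinase that assembles antigen receptor genes, went from 5.03 (4.58 to 5.48) to 8.12 (7.51 to 8.73), and Igj, above, fell. The receptor genes Cd79a and Cd79b read 84.1 and 104, and 86.02 and 101, and the surrogate light chain gene Vpreb3 54.4 and 69.2, with log2 ratios of 0.31, 0.23 and 0.34. The 7 B cell markers summed to 257 in WT and 299 in Het, with 6 higher.

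Immediate-early genes, which are switched on within minutes by growth factors or stress, had small and mostly positive ratios. None of 26 passed the 1.5-fold rule, 24 were positive, and 17 had intervals apart upward, where the background above is 8.29%. That background depends on level: intervals lay apart in either direction for 7.79% of genes with a mean FPKM from 1 to 5, 43.2% from 100 to 1000 and 54.1% at 1000 or more. The list median was 0.18. In WT, Het and KO order, Fos read 1200, 1256 and 1144, Jun 275, 343 and 236, and Dusp1, for a MAP kinase phosphatase, 398, 444 and 379. Zfp36, for an mRNA decay factor, read 1012 and 985. For Fos, Jun and Dusp1 the Het library was the highest of the 3, and the KO library the lowest.

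Lists for the actin machinery in which mDia1 works had medians near 0. Of 10 measured formins Diap1 alone passed, with Fmnl1, the most abundant formin of leukocytes, at 142 in WT and 160 in Het, Fmnl3 at 16.1 and 18.8 and Fhod1 at 10.9 and 13.03. None of 42 genes for actin, the Arp2/3 complex and actin regulators passed (median 0.03), nor any of 12 tubulins (-0.0042) or 26 leukocyte integrins and adhesion proteins (0.03). As 0.169% of all measured loci rose and 0.479% fell, these counts of none are close to the background. Of the 42, intervals lay apart upward for 14 and downward for 8. Actb, for beta actin, read 3248 and 3494, and the actin-sequestering thymosin gene Tmsb4x 6438 and 5771. Targets of SRF and MRTF, the transcription factor pair that senses free actin, had a median of 0.09, with 19 of 24 positive and 12 with intervals apart upward, none past the rule. As above, the background for separate intervals is higher for abundant genes. The filamin gene Flna read 355 and 420 and, among adhesion genes, the talin gene Tln1 145 and 175.

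No gene of the granule and mature neutrophil lists passed the 1.5-fold rule. With 0.169% of all measured loci rising and 0.479% falling, none in lists of this size is close to the background. None of 12 primary granule genes passed (median 0.03), of which Mpo, for myeloperoxidase, read 1286 and 1554 and Elane, for neutrophil elastase, 1045 and 1106. None of 22 secondary and tertiary granule genes passed (-0.03), with Ngp at 14655 in WT and 13534 in Het, Camp, for cathelicidin, at 7978 and 7899, and Retnlg at 5459 and 4460. None of 30 mature neutrophil genes passed (-0.06), although S100a8 and S100a9, for the calprotectin subunits, are the most abundant of the list, at 50656 and 46030, and 56567 and 53959. The 8 NADPH oxidase genes, for the enzyme of the oxidative burst, had ratios from -0.06 (Rac1) to 0.18 (Ncf4). Of the mature neutrophil list 12 ratios were positive and 18 negative, with intervals apart upward for 2 and downward for 12. Many genes of these lists are abundant, and at 1000 FPKM or more 54.1% of all measured loci had intervals apart in either direction. The lowest ratio of the mature neutrophil list was -0.43, for the chemokine gene Ccl6. Of the secondary and tertiary granule list 9 were positive and 13 negative, with intervals apart upward for 4 and downward for 7, and the lowest was Retnlg at -0.29.

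Of 32 measured monocyte and macrophage genes Cd5l alone passed the rule. The median was 0.06, with 19 positive and 13 negative ratios. Cd5l, for a scavenger protein secreted by tissue macrophages, went from 4.81 (3.99 to 5.64) to 7.73 (6.62 to 8.84), with 12.9 in KO. The monocyte antigen genes Ly6c1 and Ly6c2 together read 1543 in WT and 1336 in Het, a log2 ratio of -0.21, and the chemokine receptor gene Ccr2 of inflammatory monocytes 70.6 and 59.4. The complement genes C1qa and C1qb, markers of macrophages, read 25.3 and 30.9, and 22.3 and 28.2. These values for Ly6c1, Ly6c2, Ccr2, C1qa and C1qb are all under the rule's size.

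No MHC class II gene passed the rule, and Rsad2 was the single interferon response gene to fall. None of 16 dendritic cell and MHC class II genes passed, 12 were negative, and the median was -0.15. H2-Aa and H2-Ab1, for class II chains, read 166 and 122, and 118 and 96.9, and Cd74, for the invariant chain, 419 and 353. Of 17 MHC class I genes 9 were positive, with a median of 0.01, and H2-Q7, above, alone passed, though its sum with the locus on the same bases was level. Of 43 type I interferon response genes 1 fell, 30 were negative, and the median was -0.09. Rsad2, for the antiviral enzyme viperin, went from 24.9 (23.6 to 26.3) to 15.5 (14.4 to 16.6), a log2 ratio of -0.65 (SE 0.06), with 21.6 in KO. Ifitm3, for an antiviral membrane protein, read 506 and 434. Among eosinophil, basophil and mast cell genes the IgE receptor gene Fcer1a fell, from 9.79 to 6.16, as 1 of 22 (median 0.06), and Prg2, for eosinophil major basic protein, read 4550 and 4636. None of 24 T and NK cell genes passed (-0.09).

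**Figure D5:**
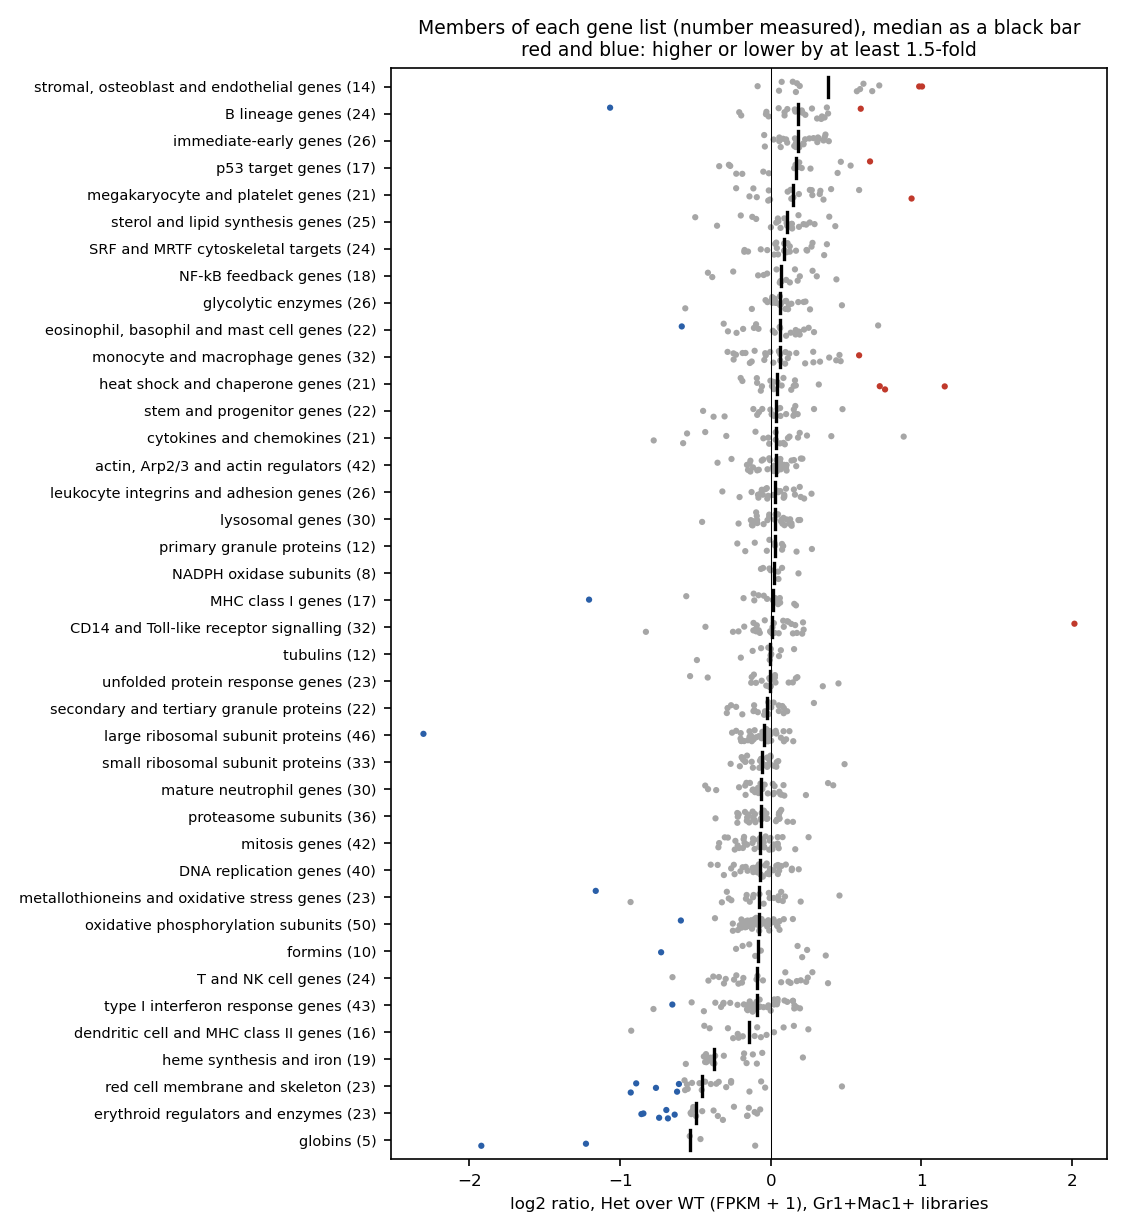
Log2 ratio of Het over WT for the measured members of the gene lists with at least 5 of them, 1 point per gene, with the number of members in brackets and the list median as a black bar; red and blue points passed the 1.5-fold rule upward and downward. With genes at a mean FPKM of at least 1, as plotted, the medians of the 4 erythroid lists lie from -0.54 to -0.37 and that of the stromal list at 0.38. The -0.54 is that of the globins, with 5 genes and without the adult alpha loci. It is the ratio of Hbq1a, which read 3.65 FPKM in WT and 2.20 in Het.

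Housekeeping lists had medians near 0. Of 50 oxidative phosphorylation subunits 41 were negative and 1 fell, with a median of -0.08; the one that fell was Uqcrb, for a subunit of complex III, from 150.1 (139 to 162) to 98.9 (89.1 to 109). Proteasome subunits (36 genes, -0.07), DNA replication genes (40, -0.07) and mitosis genes (42, -0.07) had none past the rule, and the small ribosomal subunit (33 genes) had none either, with a median of -0.06. The large ribosomal subunit (46, -0.05) had Rpl26 alone. Glycolytic enzymes were positive in 22 of 26 with a median of 0.06, and sterol and lipid synthesis genes in 20 of 25 with one of 0.11, neither with a member past the rule.

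Over 10 classes of transcript length of like size the median log2 ratio ran from -0.06 for transcripts up to 1242 bases to 0.06 for those of 6535 bases and more. Length here is that of the longest GENCODE transcript of a symbol, which need not be the one expressed or the one used for FPKM. The KO library against the same WT library ran the other way, from 0.03 to -0.03. Genes that fell had a median transcript length of 2167 bases and those that rose 2636, where all measured genes had 3214. Taken relative to genes of the same length, a setting chosen after seeing the data, oxidative phosphorylation subunits had a median of -0.05, the large and small ribosomal subunits -0.02 and -0.0082, the erythroid genes -0.42 and the stromal genes 0.39.

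Several genes past the 1.5-fold rule belong to none of the groups above. Higher were Myl4, for an embryonic and atrial myosin light chain, from 9.84 to 17.6, Cyb5d1, for a cytochrome b5 domain protein, from 5.89 to 10.6, and the stress-response genes Gadd45g, from 25.8 to 41.0, and Plk2, from 5.85 to 9.81. Plk2, for a polo-like kinase, was the single one of 17 measured p53 target genes to pass (median 0.16). Lower were Cenpw, for a centromere protein, from 6.15 to 3.03, Atp1b2, for a sodium pump subunit, from 5.02 to 2.48, Hrsp12 from 8.70 to 4.65, Fkbp1b, for a protein that binds calcium release channels, from 8.19 to 4.35, and Scoc, for a coiled-coil protein, from 8.55 to 4.59. Their ratios ran from -0.83 to -0.77, and Atp1b2 was at 161 in the WT Lin- library.

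The Lin- libraries of the same pools gave a second reading of these genes from other RNA. At 1.5-fold, 2.19% of 10972 measured loci were higher and 0.109% lower in Het than in WT Lin- cells. Of the 19 loci that rose in Gr1+Mac1+ cells 15 were measured in Lin-, 7 were higher there and none lower, and the median was 0.62. Those 7 were Col1a1, Col1a2, Ppbp, Hspb1, Hspa1a, Hspa1b and Hspa1l. Ppbp went from 29.0 in WT to 57.8 in Het Lin- cells, with 21.9 in KO. Of the 54 loci that fell 49 were measured, 1 was lower there and 3 were higher, and the median was -0.02, with 24 positive and 25 negative. The one lower in both fractions was Gimap3, for a GTPase of lymphocytes, named after its value was seen, from 12.2 to 7.72 in Gr1+Mac1+ and from 7.21 to 4.06 in Lin- cells. The part that the neutrophil transcripts of the Het Lin- library had in these values was not tested, and both fractions come from the same mice.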

How the data were processed

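RNA levels of 6 libraries were deposited by the authors as FPKM per gene locus, with lower and upper bounds and a status, per the file headers. TopHat2 2.0.7, Cufflinks 2.0.2 and mm10 are named in the submitters' processing notes; which settings and gene models they used is not given in the sources used here. No fragment counts were used, and fragment numbers were implied by taking the bounds to lie 2 FPKM divided by the root of that number away. Among genes under 50 fragments 62.8% to 64.0% came out whole within 0.05. Ratios are log2(FPKM + 1), Het minus WT. FPKM depends on the library's total, of which the 10 most abundant genes held 26.6% in WT and 25.1% in Het. Genes were named by a rule: Diap1, Cd14, the fraction's markers, all past 2-fold, 20 in each direction at 1.5-fold, and in each of 42 lists up to 5 passing and 4 most abundant members. The values of 1 list and of some genes the rule names are not reported here. Lineage markers (Klf1, Gata1, Ccr2, C1qa, C1qb) come from the marker lists. Lists use symbols held by 1 locus (11201 loci), and 1136 of 1145 symbols matched. The members, lists and rules were chosen with earlier results of these data known. Alternatives were other pseudocounts (0.1 and 5), level filters, rescaling by the median ratio, no interval criterion, and, added after seeing the data, summing of overlapping loci and transcript-length adjustment. Scripts, tested on simulated data, ran in Python 3.11.15 (matplotlib 3.10.9, numpy 2.4.6, pandas 2.3.3).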

Additional observations from a re-analysis of the deposited data

Results flagged for a closer look

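Ratios of H2-Q7 and of both Hba-a2 loci passed the 1.5-fold rule in opposite directions in the 2 fractions, and the difference between the fractions was not tested. H2-Q7 had a log2 ratio of -1.21 in Gr1+Mac1+ and 1.75 in Lin- cells. The Hba-a2 locus starting at 32283675 had -1.50 and 1.43, and the one starting at 32296492 had -1.45 and 1.41. Summed with the loci on the same bases, H2-Q7 and H2-Q9 had 0.03 and 0.02, and the alpha globin loci -0.31 and -0.15.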

How the results depend on the processing

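With 1 library a side, no spread between mice is known. No paired analysis was possible because each group has 1 library. The counts higher and lower at 2-fold, then higher and lower at 1.5-fold, were 4, 11, 19 and 54 as reported. They were 2, 5, 10 and 18 with a pseudocount of 5, 2, 7, 8 and 18 when the higher library had to reach an FPKM of 20, and 40, 46, 65 and 118 with no interval criterion. With no filter on low values, 20 were lower at 2-fold, 67 higher and 101 lower at 1.5-fold. With a pseudocount of 0.1, 7 were higher at 2-fold. With overlapping loci summed, 6 were lower at 2-fold. The cause was not tested, beyond fewer or more loci being eligible by construction. The globin median, -0.54 as reported, was -0.70 with a pseudocount of 0.1 and -0.85 with a mean FPKM of at least 5. The other 248 recomputed list medians moved by less than about 2 times the median counting SE of a single member. That is a wide allowance for a list median, so it does not show that the medians are stable. The stromal median, 0.38 as reported, was 0.19 with a mean FPKM of at least 5 and 0.15 with no filter on low values. Of the recomputed ratios of 205 named genes 772 moved by less than about 2 of their counting SEs and 46 by more. None that passed the rule changed sign. Rescaling by the median ratio (0.997) moved none of the counts by over 1.5 times.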
